A study of Mus musculus with 2 samples.

Results

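The genes described here are 10 members of the tumor necrosis factor (TNF) superfamily, namely the ligand genes Tnfsf14, Tnfsf13b, Tnfsf9 and Tnfsf10 and the receptor genes Tnfrsf1a, Tnfrsf1b, Ltbr, Tnfrsf14, Tnfrsf10b and Tnfrsf9. They were found by their symbols in both expression tables, where all 10 were present among 35522 features. The study asked which transcripts of neutrophils change under exosomes of colorectal cancer stem cells. Neutrophils were sorted from the bone marrow of mice as CD11b(+), Ly-6G(High) and Ly-6C(Low-negative) cells and were cultured in both groups with GM-CSF, which supports myeloid cells, at 10 ng/ml. The control group was given PBS and the other group 20 μg/ml exosomes, both for 3 days. By the study's methods, exosomes of cancer stem cells came from CT26, a murine colon carcinoma line, grown as spheres in serum-free stem cell medium (sphere-derived cancer stem cells, SDCSCs). The methods give the Balb/C strain and an age between 5 and 8 weeks for the donors of immune cells. The labels name no transgene or deletion, and the sources used here do not say how many animals gave RNA to each library. Each group holds 1 library, so the spread between replicates is unknown and no test of the treatment was possible.

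Ligands of this superfamily are mostly trimeric membrane proteins, some of which are also cut off the cell surface, and each binds 1 or several receptors with cysteine-rich outer domains. Some receptors, among them those encoded by Tnfrsf1a and Tnfrsf10b, carry a death domain inside the cell and can start apoptosis, whereas others, such as those encoded by Tnfrsf1b, Ltbr, Tnfrsf14 and Tnfrsf9, recruit TRAF adaptors and lead to NF-κB. In neutrophils TNF is known both to prime the cells and, under some conditions, to hasten their death, and neutrophils are a known source of BAFF, the B-cell survival factor encoded by Tnfsf13b.

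Levels are given as RPKM, that is reads per kilobase of exon model scaled to the mapped reads of the library, which allows genes to be compared within a library. Genes with 0.25 RPKM or more in both libraries were kept. A kept gene was called up when the exosome value was 2 or more times the PBS value, and down when it was 0.5 times that value or less. The words rose and fell are used below for called genes only. A log2 difference is the log2 exosome value minus the log2 PBS value, so positive values are higher with exosomes. Read numbers were estimated from RPKM, transcript length and an estimated depth of about 65950000 mapped reads for PBS and 79130000 for exosomes, and 95% counting intervals (exact, Clopper-Pearson) rest on them. These intervals cover counting error only. All 14 neutrophil markers examined were kept, with Elane lowest at 2.64 and 3.31 RPKM and S100a8 and S100a9 highest in both libraries. Of these markers 10 were called down, and 3 (Itgam, Mpo and Elane) had higher values with exosomes. Among all genes kept 5.62% were called down, and 11.4% among those with a mean of at least 50 RPKM. The sum of the 14 markers went from 84909.8 to 30867.1 RPKM. Most of it was S100a8 (32822.8 and 14381.8 RPKM) and S100a9 (43059.1 and 13834.1 RPKM). Markers of tumor epithelium summed to 0.59 RPKM in PBS and 0.21 RPKM with exosomes over 5 genes, with Krt8 at 0 in both libraries. Their levels in CT26 cells or exosomes are not known here, and carry-over of RNA from CT26 was not tested.

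Of the 10 genes, 6 were kept. Tnfrsf1b rose, Tnfsf14 fell, and Tnfrsf1a, Ltbr, Tnfrsf14 and Tnfsf13b stayed within 2-fold. The remaining 4 (Tnfsf9, Tnfsf10, Tnfrsf10b and Tnfrsf9) were below the filter. Among all 9698 genes kept, 31.5% were called up and 5.62% were called down. After centring on the median of all genes, the 3056 genes up and 545 down became 1634 and 1282, so the direction of smaller differences depends on the scaling. The median log2 difference of the 6 genes was 0.08, against 0.53 over all genes kept, and the difference was positive in 3 genes and negative in 3. The median over all genes kept varied with level, from 1 at a mean of 1 to 5 RPKM to 0.04 at 50 RPKM or more. In a bulk library, fewer cells of a type and less RNA per cell cannot be told apart.

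**Figure D1:**
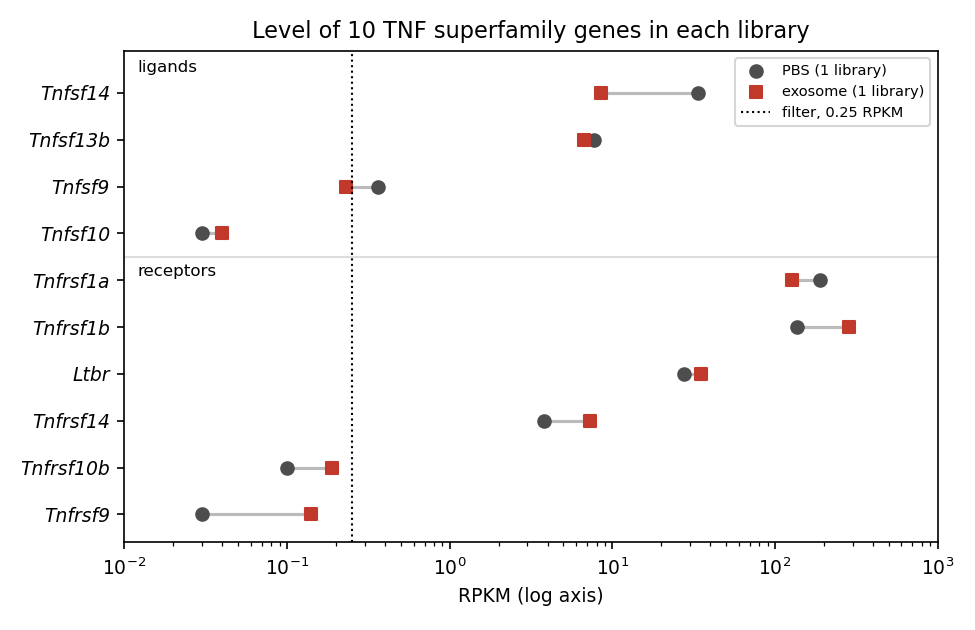
RPKM of the 10 genes on a log axis, with ligands above and receptors below. Circles are the PBS library and squares the exosome library (1 library each), and the dotted line is the filter of 0.25 RPKM. Tnfrsf1a and Tnfrsf1b change places as the higher receptor, Tnfsf14 moves from 33.85 to 8.46 RPKM, and Tnfsf10, Tnfrsf10b and Tnfrsf9 lie below the filter in both libraries.

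The sequences just before the start sites of Tnfrsf1b, Tnfsf14 and Ltbr are shown because these genes went up, went down and stayed within 2-fold, respectively, and because none of these windows overlaps an annotated transcript of the same gene. Each holds the 250 bases before the RefSeq start (build GRCm38.p6), all on the minus strand, at chr4:145246871-145247120 for Tnfrsf1b, chr17:57194182-57194431 for Tnfsf14 and chr6:125313886-125314135 for Ltbr. They are written 5′ to 3′ in the direction of the gene. Capitals mark the GC box (GGGCGG on either strand) and the AP-1 motif (TGANTCA).
Tnfrsf1b: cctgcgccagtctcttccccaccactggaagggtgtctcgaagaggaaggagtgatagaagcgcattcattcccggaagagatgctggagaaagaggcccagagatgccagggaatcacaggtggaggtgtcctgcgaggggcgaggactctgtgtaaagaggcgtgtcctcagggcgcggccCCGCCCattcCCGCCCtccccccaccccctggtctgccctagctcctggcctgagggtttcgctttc
Tnfsf14: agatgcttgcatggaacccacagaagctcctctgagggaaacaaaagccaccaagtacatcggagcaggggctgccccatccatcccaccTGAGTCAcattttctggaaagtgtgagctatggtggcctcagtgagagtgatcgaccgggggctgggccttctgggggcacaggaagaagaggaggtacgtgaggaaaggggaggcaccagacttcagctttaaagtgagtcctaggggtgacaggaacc
Ltbr: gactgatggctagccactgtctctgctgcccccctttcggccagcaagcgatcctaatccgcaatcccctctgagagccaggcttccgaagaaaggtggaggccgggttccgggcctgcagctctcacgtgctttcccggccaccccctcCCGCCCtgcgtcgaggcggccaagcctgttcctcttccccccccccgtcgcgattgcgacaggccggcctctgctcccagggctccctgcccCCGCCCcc

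Tnfrsf1b and Ltbr each held 2 GC boxes, and Tnfsf14 held none. Tnfsf14 held 1 AP-1 motif, which begins 160 bases before its start. RefSeq gave 10 such windows for 8 of the 10 genes, with 2 windows each for Tnfrsf9 and Tnfsf13b. The windows of Tnfrsf1a, Tnfrsf14 and Tnfrsf9 lie inside the annotated genes. Those of Tnfsf10 and 1 of Tnfsf13b reach into them in part, and the 2 windows of Tnfsf13b overlap. The 10 windows are thus not all independent or all upstream of the gene. A GC box was found in 3 of the 10 windows and in 32.7% of all 32851 windows of the same length, and an AP-1 motif in 3 of 10 and in 6.75% of all. The κB motif, bound by NF-κB, was found in 1 of the 10 windows against 3.90% of all. That window belongs to a start of Tnfrsf9 inside the gene and holds GGGGATTTCC, which begins 43 bases before the start and overlaps a second match shifted by 1 base. The GAS motif of STAT factors (TTCNNNGAA) was found in 3 windows (Tnfrsf1a, Tnfrsf1b and Tnfrsf9) against 7.02% of all, an ETS motif (GAGGAAG) in 1 (Tnfrsf1b) against 10.6%, and a C/EBP motif (TTGCNNAA) and TATAAA in none, against 9.56% and 12.4%. Motifs were searched on both strands. A match describes letters in a window and does not show that a factor binds there.

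Both receptors of TNF were among the most abundant transcripts of the family. Tnfrsf1a (ENSMUSG00000030341.17, chr6:125349362-125362484, plus strand, GRCm38) encodes the receptor with a death domain that most cells carry. It stood at 189.88 RPKM in PBS-treated and 127.54 RPKM in exosome-treated neutrophils, a log2 difference of -0.57 (counting interval -0.60 to -0.55). Its value was thus 1.49-fold lower with exosomes, beyond counting error but within the 2-fold limit. Tnfrsf1b (ENSMUSG00000028599.10, chr4:145213463-145246870, minus strand) encodes the receptor without a death domain, found mostly on immune and endothelial cells. It rose from 136.04 to 287.16 RPKM, a log2 difference of 1.08 (counting interval 1.06 to 1.10), which passes the 2-fold limit by a small margin. With median centring it was 0.55 and no longer called, and that of Tnfrsf1a was -1.10 and called down. Among the 1099 genes kept with a mean of at least 50 RPKM, 12.5% were called up and the median log2 difference was 0.04.

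The order of both TNF receptors was reversed between the libraries. Tnfrsf1b had 0.716 times the RPKM of Tnfrsf1a in PBS and 2.25 times with exosomes. The ratio of these ratios was 3.14 (95% interval 3.07 to 3.21 from the estimated reads, counting error only). Since each ratio is formed inside 1 library, no scaling between the libraries enters it. Of the summed RPKM of both receptors, Tnfrsf1b held 41.7% in PBS and 69.2% with exosomes. The sum itself was 325.92 RPKM in PBS and 414.7 RPKM with exosomes. Among all 28 receptor genes of the superfamily examined, Tnfrsf1a ranked first in PBS and was the third with exosomes, behind Tnfrsf1b and Fas.

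The ligand of both receptors rose as well. Tnf went from 72.08 to 225.1 RPKM, a log2 difference of 1.64. Tnf had 0.380 times the RPKM of Tnfrsf1a in PBS and 1.76 times with exosomes, a 4.65-fold shift (interval 4.51 to 4.79). Against Tnfrsf1b the same ratio went from 0.530 to 0.784, a 1.48-fold shift (interval 1.44 to 1.52). Lta, which encodes lymphotoxin α, a further ligand of both receptors, was low at 1.22 and 1.11 RPKM, and its counting interval of -0.52 to 0.25 on the log2 scale includes 0.

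**Figure D2:**
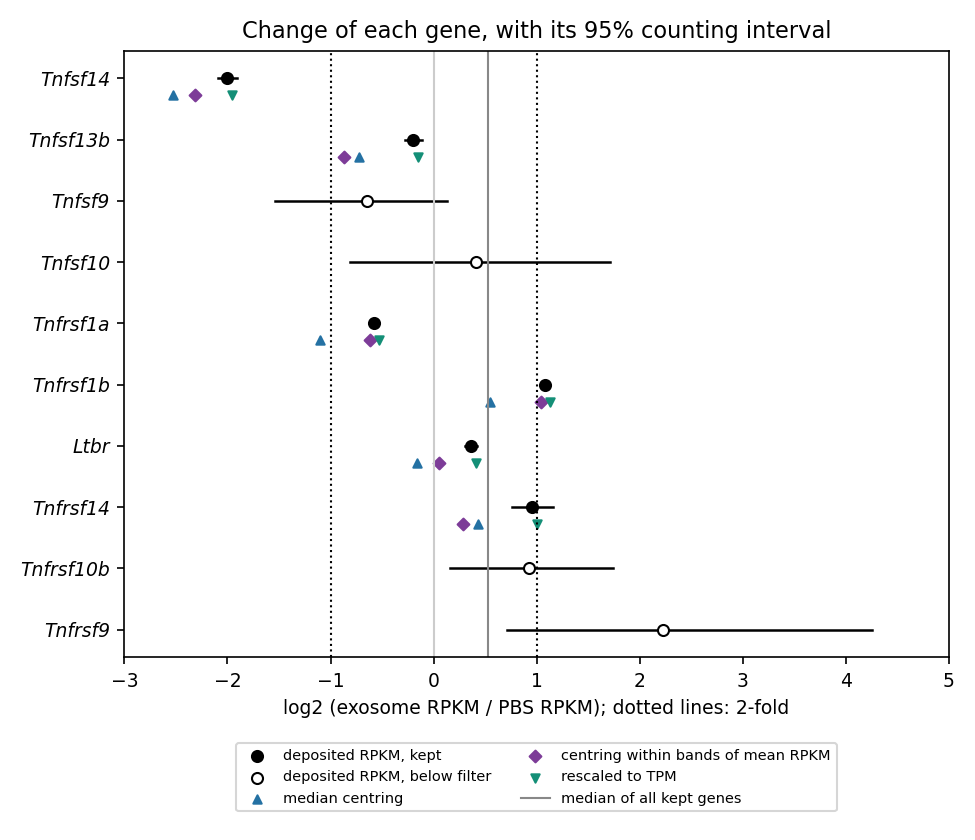
Log2 of exosome over PBS RPKM for each gene, with the 95% counting interval as a bar. Filled circles are genes kept and open circles genes below the filter. Coloured symbols give the same gene after centring or rescaling, the grey lines mark 0 and the median of all genes kept (0.53), and dotted lines mark 2-fold. Tnfsf14 lies beyond the 2-fold line under each setting drawn, whereas Tnfrsf1b falls inside it after median centring.

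Tnfsf14 (ENSMUSG00000005824.7, chr17:57189492-57194177, minus strand) encodes LIGHT, a ligand of the lymphotoxin β receptor and of HVEM that is known to costimulate T cells. It fell from 33.85 to 8.46 RPKM. The log2 difference was -2.00 (counting interval -2.09 to -1.91). Only 1.12% of all genes kept had a lower log2 difference. Tnfsf14 was the third most abundant of 18 ligand genes in both libraries, but its share of their summed RPKM was 9.09% in PBS and 1.72% with exosomes. On chromosome 17 the nearest kept gene on the side of higher coordinates is C3, which encodes complement component C3. It lies 9793 bases away and rose from 137.25 to 512.42 RPKM, a log2 difference of 1.90.

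Neither receptor of LIGHT was called down. Ltbr (ENSMUSG00000030339.7, chr6:125306571-125313885, minus strand) encodes the lymphotoxin β receptor, an activator of the alternative NF-κB pathway. It had 27.44 RPKM in PBS and 35.28 RPKM with exosomes, a log2 difference of 0.36 (counting interval 0.30 to 0.42), which median centring turned to -0.16. Tnfrsf14 (ENSMUSG00000042333.16, chr4:154921933-154928563, minus strand) encodes HVEM, which binds LIGHT and also the inhibitory receptor BTLA. It had 3.78 and 7.34 RPKM, a log2 difference of 0.96. The ratio of 1.94 lies just under the 2-fold limit, and its counting interval of 1.69 to 2.24 includes that limit. Ltbr remained the more abundant of both receptors, at 7.26 times the RPKM of Tnfrsf14 in PBS and 4.81 times with exosomes.

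Inside each library, the ligand lost ground to both receptors. Tnfsf14 had 8.96 times the RPKM of Tnfrsf14 in PBS and 1.15 times with exosomes, a 7.77-fold smaller ratio (interval 6.68 to 9.04). Against Ltbr it had 1.23 times the RPKM in PBS and 0.240 times with exosomes, a 5.14-fold smaller ratio (interval 4.77 to 5.55). Such ratios still hold shifts that depend on level. After centring within bands of mean RPKM, the log2 differences were -2.31 for Tnfsf14, 0.28 for Tnfrsf14 and 0.05 for Ltbr. Ltb, which encodes lymphotoxin β and was the most abundant ligand transcript of the superfamily, had 256.95 and 248.84 RPKM, and stood at 9.36 and 7.05 times Ltbr. Of the further partners of HVEM, Btla had 2.71 and 1.76 RPKM and Cd160 0.44 and 0.33 RPKM, both within 2-fold. The interval of Cd160 on the log2 scale, -0.90 to 0.09, includes 0.

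**Figure D3:**
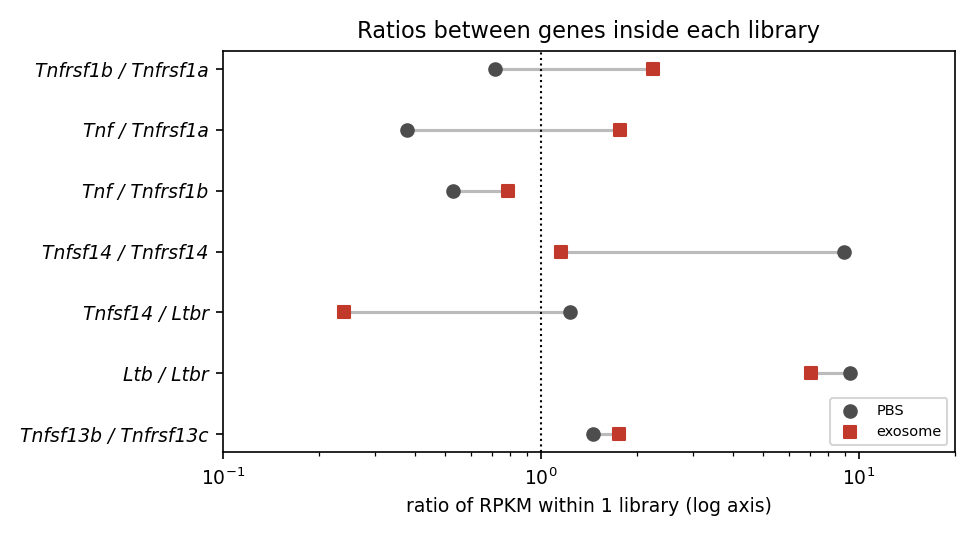
Ratio of the RPKM of one gene to that of another inside the same library, on a log axis, for receptor and ligand pairs. Circles are PBS and squares are exosomes (1 library each), and the dotted line marks equal levels. Tnfrsf1b over Tnfrsf1a and Tnf over Tnfrsf1a cross from below to above 1, and Tnfsf14 over Ltbr crosses from above to below it.

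Tnfsf13b (ENSMUSG00000031497.9, chr8:10006467-10039072, plus strand), which encodes BAFF, stayed within 2-fold. It had 7.72 RPKM in PBS and 6.73 RPKM with exosomes, a log2 difference of -0.20 (counting interval -0.28 to -0.12). Genes with a mean between 5 and 10 RPKM had a median log2 difference of 0.67, and Tnfsf13b stood 0.87 below it. BAFF binds the receptors encoded by Tnfrsf13c, Tnfrsf13b and Tnfrsf17. Tnfrsf13c had 5.31 and 3.84 RPKM, Tnfrsf13b had 1.43 and 1.53 RPKM, and Tnfrsf17 was listed at 0 in both libraries. These receptors are best known from B cells, as are Ltb and Cd40 (2.3 and 1.25 RPKM). All 6 B-cell markers examined were kept in both libraries, none was at 0, and 5 of them were lower with exosomes. None of the 6 was called down, and 1 (Igj, now Jchain) was called up, from 0.29 to 1.05 RPKM. Among all 9698 genes kept, 2601 were lower with exosomes, 31.5% were called up and 5.62% were called down. Cd79a had 38.25 and 24.44 RPKM, and the list summed to 108.41 RPKM in PBS and 67.92 RPKM with exosomes. The part of such cells in the values of these receptor genes, of Cd40, of Ltb or of Btla was not tested.

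The 4 genes below the filter were detected at few reads. Tnfsf9, which encodes the ligand of the costimulatory receptor 4-1BB, had 0.36 RPKM in PBS and 0.23 RPKM with exosomes, about 31 and 23 reads (chr17:57105325-57107757, plus strand). Its log2 interval of -1.54 to 0.13 includes 0, so no difference was detectable at this depth. Tnfrsf9, which encodes 4-1BB, had 0.03 and 0.14 RPKM, about 4 and 23 reads (chr4:150914562-150946102, plus strand). The ratio of 4.67 had a counting interval of 1.64 to 19.1, and rounding to 0.01 RPKM adds to its error. Park7, which as annotated lies 125 bases upstream of the start of Tnfrsf9, rose from 10.67 to 37.81 RPKM, a log2 difference of 1.83. Whether reads were assigned by strand is not given in the sources used here, and the part of Park7 in the value of Tnfrsf9 was not tested.

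The ligand TRAIL and its death receptor were nearly silent as transcripts. Tnfsf10, which encodes TRAIL, had 0.03 and 0.04 RPKM, about 10 and 16 reads (chr3:27317028-27342427, plus strand), and its log2 interval of -0.81 to 1.72 includes 0. Tnfrsf10b, which encodes the mouse death receptor of TRAIL, had 0.1 and 0.19 RPKM, about 21 and 48 reads (chr14:69767472-69784411, plus strand). Its ratio of 1.90 had a counting interval of 1.12 to 3.35. The decoy TRAIL receptor gene Tnfrsf23 had 10.52 and 11.64 RPKM, that is 105 times the RPKM of Tnfrsf10b in PBS and 61.3 times with exosomes. Its neighbours Tnfrsf22 and Tnfrsf26 on chromosome 7 had 0.95 and 0.52 RPKM and 3.92 and 2.83 RPKM. These 3 genes are similar in sequence, and how reads shared among them were assigned is not given, so their single values are uncertain.

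Several genes of the family lie side by side. Ltbr and Tnfrsf1a are 35477 bases apart on chromosome 6, and their log2 differences of 0.36 and -0.57 had opposite signs as deposited but were both negative after median centring. Scnn1a, a sodium channel gene between them, fell from 11.37 to 3.74 RPKM. Tnfrsf1b lies 20267 bases from Tnfrsf8, the receptor gene of CD30, which rose from 0.77 to 1.82 RPKM, a log2 difference of 1.24. Among genes kept with a mean of 1 to 5 RPKM, as Tnfrsf8 has, 50.2% were called up. After median centring neither Tnfrsf1b nor Tnfrsf8 was called up. Tnfsf9 and Tnfsf14 flank Cd70, which was listed at 0 in both libraries.

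In the rest of the superfamily most transcripts were scarce. Of 14 further ligand genes listed, 3 were kept, and of these Tnf rose and Lta and Ltb stayed within 2-fold. Of 22 further receptor genes, 12 were kept, of which 2 (Fas and Tnfrsf8) rose and 0 fell, with a median log2 difference of 0.12, whereas after median centring 0 were called up and 2 down. Among all 9698 genes kept, 31.5% were called up and 5.62% down as deposited, and 1634 and 1282 genes after median centring. The count of 2 among 12 rests on few genes and changes with the scaling, so it is no result about these receptors. Fas, which encodes the death receptor CD95 and was the most abundant of these 22, rose from 67.2 to 153.62 RPKM, a log2 difference of 1.19. Its ligand gene Fasl had 0.04 and 0.05 RPKM. In the deposited values, Tnfsf14 was the 1 kept ligand or receptor gene of the superfamily called down.

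Genes that act below the receptors were all expressed. Of 30 such genes (TRAF adaptors, kinases, ubiquitin enzymes and NF-κB subunits of the alternative pathway), all were kept, 10 rose and 2 fell, and the median log2 difference was 0.44. These counts are near the background of 31.5% up and 5.62% down among all genes kept, so they are no result about this list. After median centring 4 were called up and 2 down, against 1634 and 1282 of all 9698 genes kept. Fadd, the adaptor of death receptors, rose from 0.25 to 1.45 RPKM and sat at the filter in PBS. Fam105b, an older name of Otulin, which encodes an enzyme that removes linear ubiquitin chains, rose from 12.47 to 59.9 RPKM. Tnip1, which encodes a partner of the NF-κB inhibitor A20 and had the highest mean RPKM of the list over both libraries, although not the highest in PBS, rose from 53.01 to 222.86 RPKM. The other genes that rose (Casp8, Traf1, Map3k7, Birc3, Nfkb2, Relb and Cflar) had log2 differences from 1.10 to 1.69. Map3k5, which encodes the kinase ASK1, fell from 93.23 to 23.59 RPKM, and Ikbkg, which encodes NEMO, fell from 47.37 to 16.69 RPKM. Genes named here at less than 4-fold were picked after their values were seen.

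**Figure D4:**
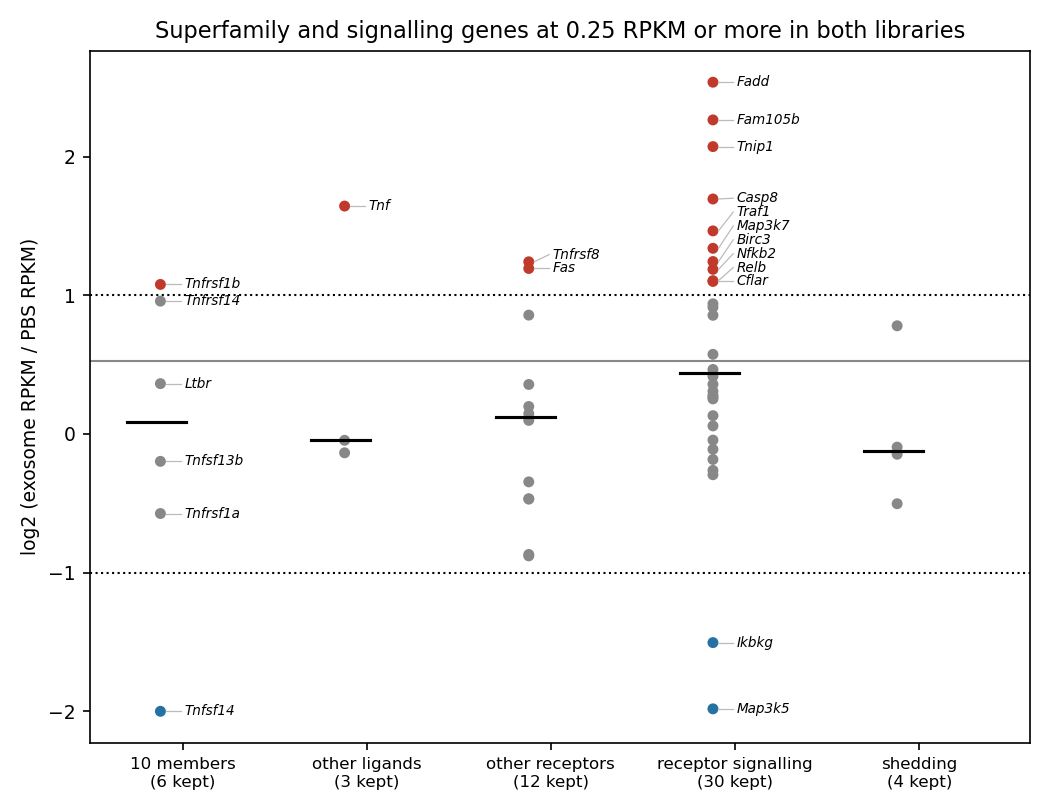
Log2 of exosome over PBS RPKM for each gene kept in the list of 10 genes, the other ligands and receptors, the signalling genes and the genes of ectodomain shedding. Red points are called up, blue points down and grey points within 2-fold (dotted lines). Black bars are list medians and the grey line is the median of all genes kept (0.53). In each of the 5 lists the median lies below the grey line. That line is not matched for level, as the median of genes kept was 1 at a mean of 1 to 5 RPKM and 0.04 at 50 RPKM or more.

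Enzymes that release ligands and receptors from the surface were examined because soluble TNF and soluble TNF receptors arise by this route. Adam17, which encodes the protease that cuts TNF and both of its receptors, had 151.07 and 141.41 RPKM (log2 difference -0.10), and Rhbdf2, which encodes its activator iRhom2, had 59.56 and 42.01 RPKM (-0.50). Furin had 88.75 and 80.16 RPKM, and Adam10 had 22.9 and 39.31 RPKM, a log2 difference of 0.78. All 4 stayed within 2-fold. Rhbdf1 (0.04 and 0.02 RPKM) and Timp3 (0.28 and 0.02 RPKM), which encodes an inhibitor of Adam17, were below the filter.

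Markers of other cells were examined as well. Among all 9698 genes kept, 7079 had a positive log2 difference, 31.5% were called up and 5.62% were called down. Of 12 listed markers of monocytes and macrophages, 6 were kept, all 6 were higher with exosomes and 4 were called up. The list summed to 164.48 RPKM in PBS and 461.95 RPKM with exosomes, and none of it was at 0. Csf1r had 58.1 and 152.64 RPKM and Emr1, which encodes F4/80, had 20.91 and 151.51 RPKM. Of 11 markers of T and NK cells, 3 were kept and 1 was called down, and the list summed to 60.58 RPKM in PBS and 10.08 RPKM with exosomes. Most of that sum was Cd3d, at 56.44 and 7.02 RPKM, while Cd3e had 0.06 and 0.04 RPKM and Trac was listed at 0 in both. Below the filter in 1 library, Cd3g had 1.19 and 0.11 RPKM and Klrb1c 0.01 and 0.51 RPKM. Dendritic cell markers summed to 155.76 and 107.32 RPKM over 9 genes, with 5 kept, 1 called down and none at 0. Markers of eosinophils, basophils and mast cells summed to 12.95 and 8.21 RPKM over 9 genes, none at 0, with 5 kept and none of these 5 called. Of those not kept, Ccr3 had 1.44 and 0.22 RPKM and Kit 0.23 and 0.54 RPKM. The part of any of these cells in the rise of Tnfrsf1b or the fall of Tnfsf14 was not tested.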

How the data were processed

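RNA of sorted bone marrow neutrophils was sequenced as 1 library per treatment. The authors trimmed reads below a Phred score of 20, analysed them in CLC Genomics Workbench v8.0 and deposited 1 RPKM value per feature. The build mm10 comes from the submitters' processing notes, and it is that of C57BL/6J, whereas the study used Balb/C mice. Annotation, handling of shared reads and scaling between libraries are not given in the sources used here. RPKM of 0.01 and above are rounded to 0.01.

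Both tables were joined by feature name. Depth was estimated from values below 0.01 RPKM, many of which stand for 1 read: 295 of 918 features in PBS and 330 of 1064 with exosomes gave 1 common total, using the longest GENCODE M21 transcript of each symbol (GRCm38). A length was found for 91.7% of genes kept. 3 reads correspond to 0.0246 RPKM of Tnfsf14 in PBS and 0.0205 RPKM with exosomes. Fold changes carry no pseudocount, and no test was run, since each group is 1 library. Intervals of ratios between genes in a library treat the estimated reads as Poisson counts. Calculations used Python 3.11.15, pandas 2.3.3 and scipy 1.17.1, and were tested on simulated data.

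The genes and lists were chosen with earlier results of these data known. Named were the 10 genes, their binding partners, listed genes changed at least 4-fold, the gene of highest mean RPKM in each list and all shedding genes. Alternatives were 3 ways of centring, TPM, other filters and pseudocounts, and a ratio of at least 4. Traf5 was not analysed here.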

Additional observations from a re-analysis of the deposited data

How the results depend on the processing

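Tnfsf14 stayed called down in all settings run, with log2 differences from -2.54 to -1.88. At a ratio of at least 4 its call held only narrowly, at 4.001-fold lower, and its counting interval of -2.09 to -1.91 includes that limit. Tnfrsf1b lost its call under median centring (0.55) and after subtracting the trimmed mean log ratio (0.54), and kept it in the other centring and filter settings (1.04 to 1.13), though not at a ratio of at least 4. These 2 centrings left 0 of the 6 kept genes up and 2 down, because Tnfrsf1a then passed the limit (-1.10 and -1.12), and turned Ltbr to -0.16 and -0.18. They took off 0.53 and 0.54 on the log2 scale at every level of expression, while genes at 50 RPKM or more had a median of 0.04. TPM left 2 of the 6 kept genes up, as Tnfrsf14 then just reached 2-fold (1.005), and a ratio of at least 4 left 0 up. Over all genes kept, TPM gave 3203 up and 500 down, and a ratio of at least 4 gave 826 and 111. The median of the genes was -0.44 with median centring, -0.46 with the trimmed mean, -0.28 with centring in bands of RPKM, -0.19 with 0.25 RPKM in either library and a pseudocount of 0.25, and 0.19 with no filter and that pseudocount.

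Among the other lists, called genes numbered as follows. Median centring gave 6 of the signalling genes and 1 shedding gene. The trimmed mean gave 4 other receptors (0 up, 4 down), 6 signalling genes and 1 shedding gene. Centring in bands gave 2 other ligands and 6 other receptors (1 up, 5 down). An RPKM of at least 1 gave 1 other receptor and 2366 genes in all, and a pseudocount of 1 gave 1 and 2376. A ratio of at least 4 gave 0 other ligands, 0 other receptors, 3 signalling genes and 937 genes in all. Over all genes, median centring gave 1634 up and 1282 down, the trimmed mean 1596 and 1321, and centring in bands 1353 and 1301, against 3056 and 545 as deposited. No paired analysis was possible because each group holds 1 library. Read depth limits Tnfsf9, Tnfsf10, Tnfrsf10b and Tnfrsf9, and leaves counting intervals within 0.10 on either side for Tnfrsf1a, Tnfrsf1b, Tnfsf14, Tnfsf13b and Ltbr.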
